A study of Homo sapiens with 2 samples.

Results

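The miRNAs described here are mature human miRNAs numbered 3000 or above. MicroRNAs are short RNAs cut from hairpin precursors and loaded into Argonaute proteins, where bases 2 to 8, the seed, pair with target RNAs. Names are numbered in the order of registration, so high numbers mark late entries, most of them found by deep sequencing. Many are rare, some come from short introns (mirtrons, which the spliceosome rather than Drosha releases), and some overlap other transcripts.

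Members were the names numbered 3000 or above with at least 2 counts summed over both libraries, apart from 11 names that the rule leaves out, among them miR-4488, miR-6087 and miR-7641. The rule gave 106 members among the 2588 names listed. Of the 1442 names numbered 3000 or above, 1259 (87.3%) had 0 counts in both libraries and 70 had 1 count, which put them just outside the rule, while 37 members had exactly 2. At least 2 counts were reached by 7.84% of the names numbered 3000 or above and by 38.2% of those below. The summed count chose the members, so these numbers describe them and support nothing further.

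Both libraries came from lysate of parental MDA231 cells, a breast cancer line better known as MDA-MB-231. The lysate was passed over amylose resin that held a fusion of maltose-binding protein and the MS2 coat protein. In the bait library the RNA substrate was MACC1-AS1-MS2, a long non-coding RNA made in vitro with MS2 hairpins. In the no-bait library the RNA substrate was none, so neither an unrelated RNA nor the hairpins alone served as control. Each group held 1 library, with 1047269 and 269716 counts, so the bait library was 3.88-fold deeper. No difference below has a replicate check, and every interval covers counting error only. All 11 miRNAs fixed as marks of this line were found in both libraries, as were 3 of the 6 epithelial marks and 3 of the 6 blood cell marks. Being found in both says nothing of the level of a mark. The 11 line marks took 53.9% of counts with bait and 60.3% without, a sum that the deepest of them can carry. That sum does not show that each line mark was high, and the identity of the cells was not tested. The 6 epithelial marks took 0.0181% of counts with bait and 0.0111% without, with miR-141-3p and miR-205-5p at 0 in both. The 6 blood cell marks took 0.0432% with bait and 0.0864% without, with miR-144-3p and miR-223-3p at 0 in both, and their part in the members' lower share was not tested. RPM values (counts scaled to a common library total) are shares, so a gain of other miRNAs lowers them. Both libraries hold RNA recovered from the resin, so a ratio compares recovery with and without bait. It does not measure expression in the cells.

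RefSeq mature sequences (GRCh38.p14) were found for 83 of the 106 members. The 12 below carry the results that follow, and they are shown 5′ to 3′ with the seed in capitals. The first 4 were the shortest of the members with a sequence and at least 30 counts, and all were lower with bait.
miR-4443: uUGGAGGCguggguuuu
miR-3182: gCUUCUGUaguguaguc
miR-4455: aGGGUGUGuguguuuuu
miR-7704: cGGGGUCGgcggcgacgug
The next pair end on an annotated splice site and went to opposite sides of a ratio of 1.
miR-3605-3p: cCUCCGUGuuaccuguccucuag
miR-5010-3p: uUUUGUGUcucccauuccccag
The next pair had the highest ratios among members with at least 20 counts.
miR-4677-3p: uCUGUGAGaccaaagaacuacu
miR-3613-5p: uGUUGUACuuuuuuuuuuguuc
The last 4 were among the deepest members.
miR-4521: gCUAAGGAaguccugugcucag
miR-3615: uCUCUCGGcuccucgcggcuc
miR-4301: uCCCACUAcuucacuuguga
miR-7706: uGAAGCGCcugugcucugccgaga
Of the 83 members with a sequence, 0 shared a seed with another member or with a detected miRNA numbered below 3000. The 23 members without a sequence were not compared.

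Together the members took 1076 counts with bait and 633 without. That is 0.103% of the bait library (Clopper-Pearson 95% interval 0.0967% to 0.109%) and 0.235% of the no-bait library (0.217% to 0.254%). Their pooled bait over no-bait ratio was 0.438 (exact conditional binomial interval 0.396 to 0.484), or 2.28-fold lower with bait. With DESeq2 size factors the ratio was 0.587 (0.531 to 0.648), still below 1 but no longer past 2-fold. The members of 17 to 19 nt carried part of it, since without them the pooled ratio was 0.583. The pooled ratio was also below 1 for miRNAs numbered from 1000 to below 3000, at 0.326 (0.303 to 0.352), and for those from 500 to below 1000, at 0.742 (0.706 to 0.781), while names below 500 stood at 1.03. A low pooled ratio is therefore not particular to numbers of 3000 or above. Within the members it was 0.296 for numbers below 4000, 0.461 from there to below 5000, 0.543 from there to below 6000 and 0.721 (0.551 to 0.952) for 6000 and above.

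**Figure D1:**
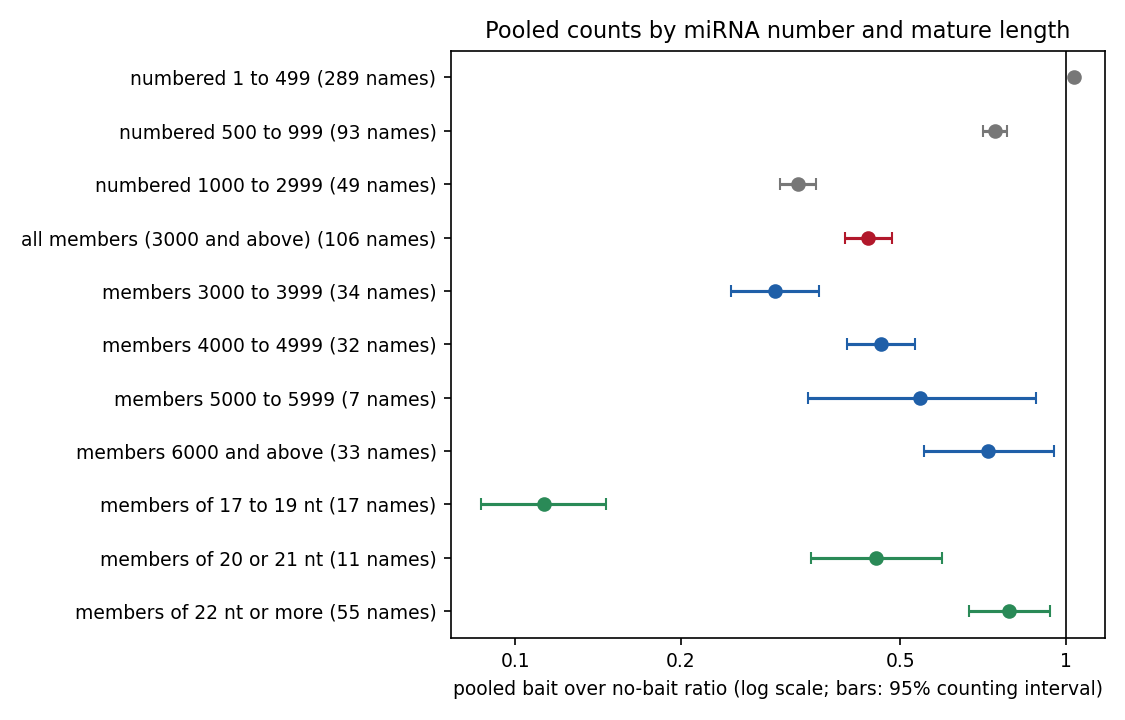
Pooled bait over no-bait ratio (log axis, with 95% counting intervals) of names grouped by number (grey: other classes; red: all members; blue: members in blocks) and of members grouped by mature length (green). The members of 17 to 19 nt lie farthest left at 0.113, and each block of members lies below 1.

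More members were seen with bait than without, but this went with depth. Of the 106 members 92 had a count with bait and 73 without, and 59 were in both. Thinned to the no-bait total, the bait library would be expected to hold 55.4 of them (hypergeometric expectation), fewer than the 73 seen without bait. Of the 431 names below 3000 with at least 2 counts, 425 had a count with bait and 337 without. Their thinned expectation was 355 against these 337. The 33 members found with bait alone had at most 10 counts, with a median of 2, and the 14 found without bait alone had at most 4. A member with 0 counts may still be present at up to 2.86 RPM with bait or 11.1 RPM without, the level of 3 counts.

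The members were scarce even at their top. The most abundant with bait, miR-4521, ranked at place 109 of all names there, and the most abundant without bait, miR-4455, at place 90. The 5 most abundant members of each library, not the same 5 in both, took 47.0% of the members' counts with bait and 33.2% without. At least 30 counts over both libraries, the minimum used for calls, were reached by 18 members, which held 76.6% and 69.4% of the members' counts. Called higher means a ratio of 2 or more, and called lower 0.5 or less, each with an interval that excludes 1. Of the 18 members, 8 were lower, 1 was higher and 9 passed neither rule. Over all 231 names with 30 counts, 26.8% were called lower and 39.4% higher. The median log2 ratio was -0.86 for the members and 0.55 for all tested names, a distance of -1.40 that does not depend on the scaling between the libraries. With at least 10 counts, 14 of 30 members were lower and 2 higher, beside 24.9% lower and 29.2% higher among all 325 names.

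**Figure D2:**
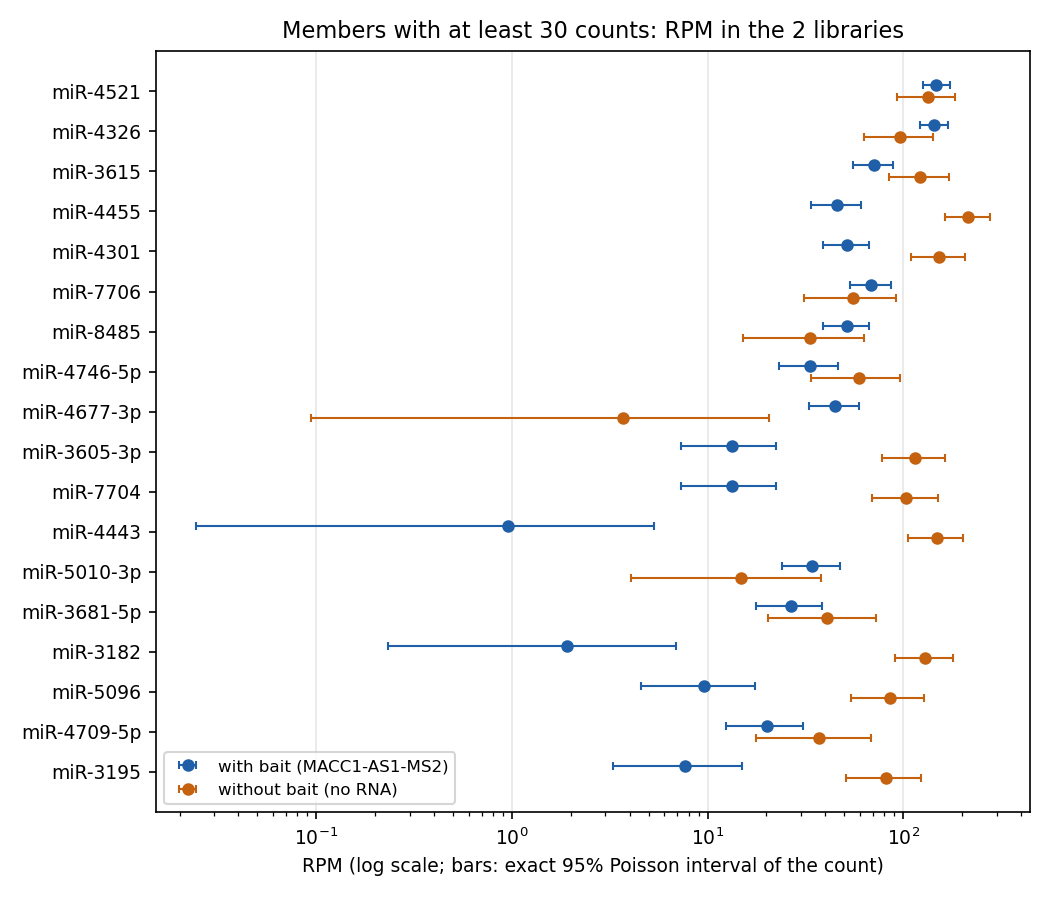
RPM (log axis) of the 18 members with at least 30 counts, with bait (blue) and without (orange); bars are exact 95% Poisson intervals of the count. The pairs of miR-4443 and miR-3182 are the widest apart with bait low, and miR-4677-3p is the one pair with bait far above.

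Of the 7 members with the highest summed counts, 4 had intervals that include 1. The other 3, miR-3615, miR-4455 and miR-4301, had intervals below 1 and are described further on. miR-4521, whose hairpin lies on chromosome 17 (8186945 to 8187004, plus strand) in no other annotated gene, had 148 RPM with bait and 133 RPM without, the latter from 36 counts. Its ratio was 1.11 (0.767 to 1.64), within counting error of 1, but it was 1.49 (1.03 to 2.20) with DESeq2 size factors. For miR-4326 the counts were 151 with bait and 26 without, and the ratio 1.50 (0.982 to 2.36). miR-7706, in a UTR exon of AKAP13, an anchoring protein for protein kinase A, had 72 and 15 counts and a ratio of 1.24 (0.702 to 2.32). miR-8485 had 54 and 9 counts, a ratio of 1.55 (0.757 to 3.56). With DESeq2 size factors miR-4326 and miR-8485 (ratio 2.07) passed the higher rule.

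Other members with at least 30 counts had ratios between 0.5 and 1 and were not called. miR-3615, which lies in a UTR exon of the scaffold gene SLC9A3R1 on chromosome 17, had 74 counts with bait and 33 without, or 70.7 and 122 RPM. Its ratio of 0.578 had an interval below 1 (0.378 to 0.899), which with DESeq2 size factors reached past 1 (0.774, 0.507 to 1.20). miR-4746-5p, opposite UBXN6 on chromosome 19, had 35 and 16 counts and a ratio of 0.563 (0.304 to 1.09). miR-4709-5p, annotated within a coding exon of the cholesterol transport gene NPC2, had 21 and 10 counts and a ratio of 0.541 (0.244 to 1.29). miR-3681-5p, from an intron of its host transcript MIR3681HG, had 28 and 11 counts and a ratio of 0.656 (0.316 to 1.46). The last 3 intervals include 1.

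Higher with bait was miR-4677-3p alone among the 18. Its hairpin lies in an intron of SDCCAG8, which encodes a protein of centrosomes and cilia, on chromosome 1 (243346176 to 243346255, plus strand). It had 47 counts with bait and 1 without, or 44.9 and 3.71 RPM, a ratio of 12.1 (2.07 to 488). The wide upper bound follows from the single count without bait. miR-5010-3p had 36 and 4 counts, or 34.4 and 14.8 RPM, and its ratio of 2.32 (0.831 to 8.96) was not called, but with DESeq2 size factors it was 3.11 and passed. Below 30 counts, 1 further member passed the higher rule. It was miR-3613-5p, from an intron of DLEU2, the host transcript of miR-15a and miR-16-1, with 24 and 1 counts and a ratio of 6.18 (1.01 to 254). miR-3909, from an intron of TOM1, had 14 and 1 counts, but its interval included 1 (ratio 3.61, 0.549 to 152). miR-3613-5p and miR-3909 were picked out after their values were seen.

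Lower with bait were miR-4443, miR-3182, miR-3195, miR-5096, miR-3605-3p, miR-7704, miR-4455 and miR-4301, 8 in number under each of the 4 scalings tried. miR-4443, on chromosome 3 (48196564 to 48196616, plus strand) outside other annotated genes, had 1 count with bait and 40 without, or 0.955 and 148 RPM. Its ratio was 0.00644 (0.000159 to 0.0380). miR-3182, in an intron of CDH13, which encodes T-cadherin, on chromosome 16 (83508346 to 83508408, plus strand), had 2 and 35 counts and a ratio of 0.0147 (0.00171 to 0.0573). Both were nearly missing from the deeper library.

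The other lower members kept more counts with bait. miR-7704, at the HOXD1 gene of body patterning on chromosome 2 (176188843 to 176188901, plus strand) and within its annotated coding exon, had 14 and 28 counts. Its ratio was 0.129 (0.0627 to 0.253). miR-4455, on chromosome 4 (184938383 to 184938440, minus strand), is a GU repeat followed by a run of U in the sequence printed above. It was the most abundant member without bait, at 58 counts or 215 RPM against 48 counts or 45.8 RPM with bait, 4.69-fold lower (3.15 to 7.03). miR-4301, from an intron of the dopamine receptor gene DRD2 on chromosome 11, had 54 and 41 counts, or 51.6 and 152 RPM, 2.95-fold lower (1.92 to 4.51). miR-5096 had 10 and 23 counts (ratio 0.112, 0.0476 to 0.245) and miR-3195 had 8 and 22 (0.0937, 0.0361 to 0.218). Of these 8, miR-4301 was the one whose interval did not lie wholly beyond 2-fold.

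**Figure D3:**
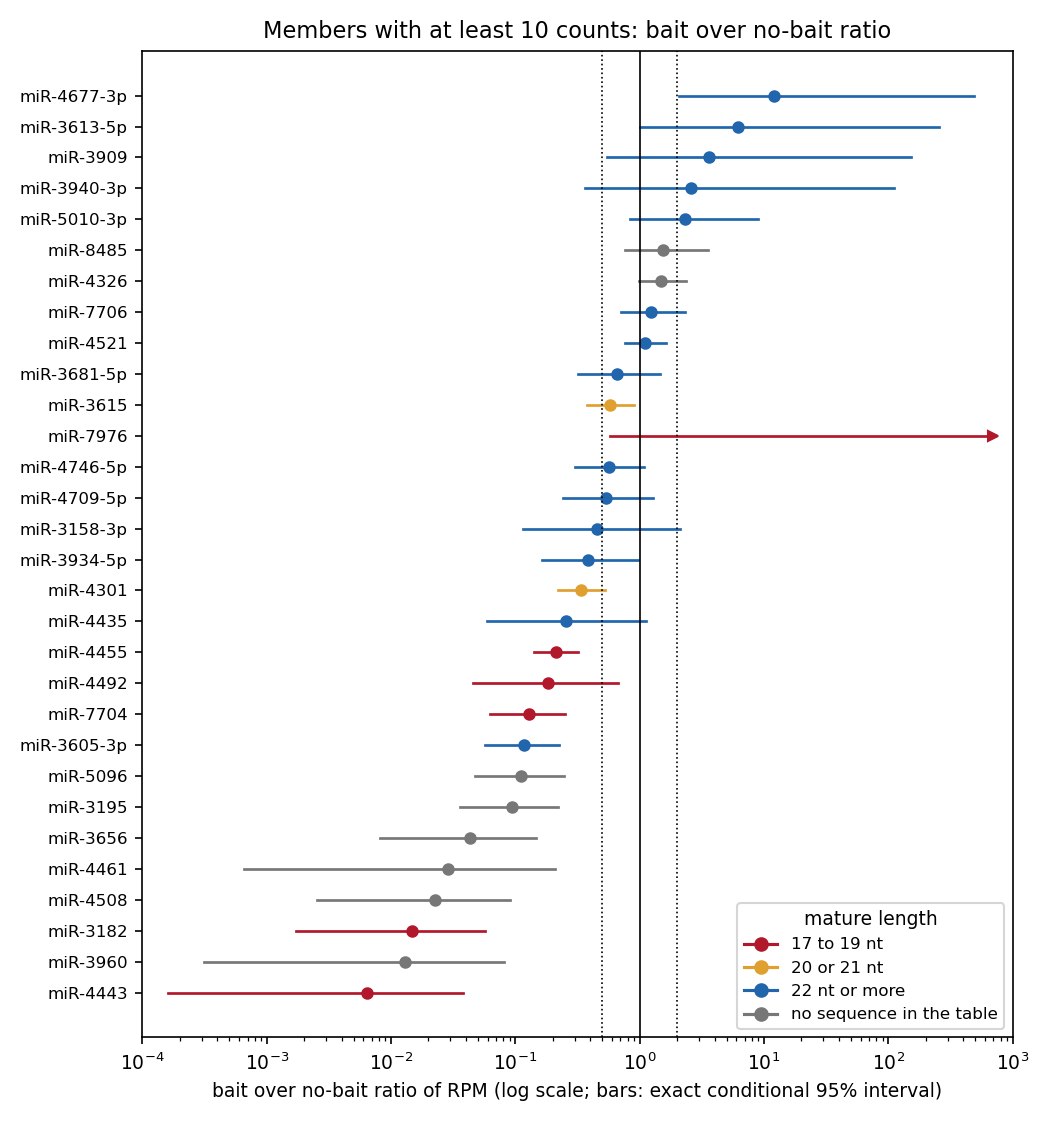
Bait over no-bait ratio (log axis) of the 30 members with at least 10 counts, with exact conditional 95% intervals and coloured by mature length; dotted lines mark 0.5 and 2. miR-7976, with 10 counts with bait and 0 without, is drawn from its lower bound of 0.577 with an arrow. Red points (17 to 19 nt) and grey points (no sequence) fill the low end together with the blue point of miR-3605-3p, while the other members of 22 nt or more (blue) lie on both sides of 1.

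Mature length was not used by the rule, and it was looked at after the ratios were known. The 17 members of 17 to 19 nt had 86 counts with bait and 196 without, a pooled ratio of 0.113 (0.0867 to 0.146), or 8.85-fold lower. The 11 members of 20 or 21 nt had a pooled ratio of 0.452 (0.345 to 0.596). The 55 members of 22 nt or more had 572 and 187 counts and a ratio of 0.788 (0.667 to 0.934), which became 1.06 (0.893 to 1.25) with DESeq2 size factors. These 3 intervals did not overlap. The low value of the short members did not come from the deepest of them, since without miR-4455 it was 0.0709 (0.0482 to 0.102).

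The 23 members with no matched sequence had 267 and 164 counts and a ratio of 0.419 (0.344 to 0.512), which was 0.216 (0.168 to 0.279) without the deepest of them, miR-4326, and 0.562 with DESeq2 size factors. Of the 8 with at least 10 counts, 6 were lower and 0 higher, beside 24.9% lower and 29.2% higher among all 325 names. No share was taken over other names without a sequence, so these calls are not read as a trait of lacking one.

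All 4 short members with 30 counts were lower, as were all 6 other names of 17 to 19 nt that reached 30 counts among those numbered below 3000. Their lengths are those of the annotation, and the lengths of the sequenced reads were not analysed here. Short names made up 20.5% of the members with a sequence and 3.15% of the 381 names below 3000 with at least 2 counts and a sequence. Pooled, the 12 short names below 3000 had 467 and 506 counts and a ratio of 0.238, while the 306 of 22 nt or more stood at 1.07. miR-7976 (19 nt, from an intron of TPRA1) had 10 counts with bait and 0 without, and its interval (from 0.577 up) includes 1. Among short names below 3000, miR-548av-5p (18 nt) likewise had 16 counts with bait and 0 without, with an interval from 0.993 up. At least 10 counts were reached by 6 short members, of which 5 were lower (miR-4492, with 5 and 7 counts, beside the 4 above), and by 14 members of 22 nt or more, of which 2 were lower and 2 higher. The members lower in the latter were miR-3605-3p and miR-3934-5p (15 and 10 counts, ratio 0.386, 0.162 to 0.962).

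**Figure D4:**
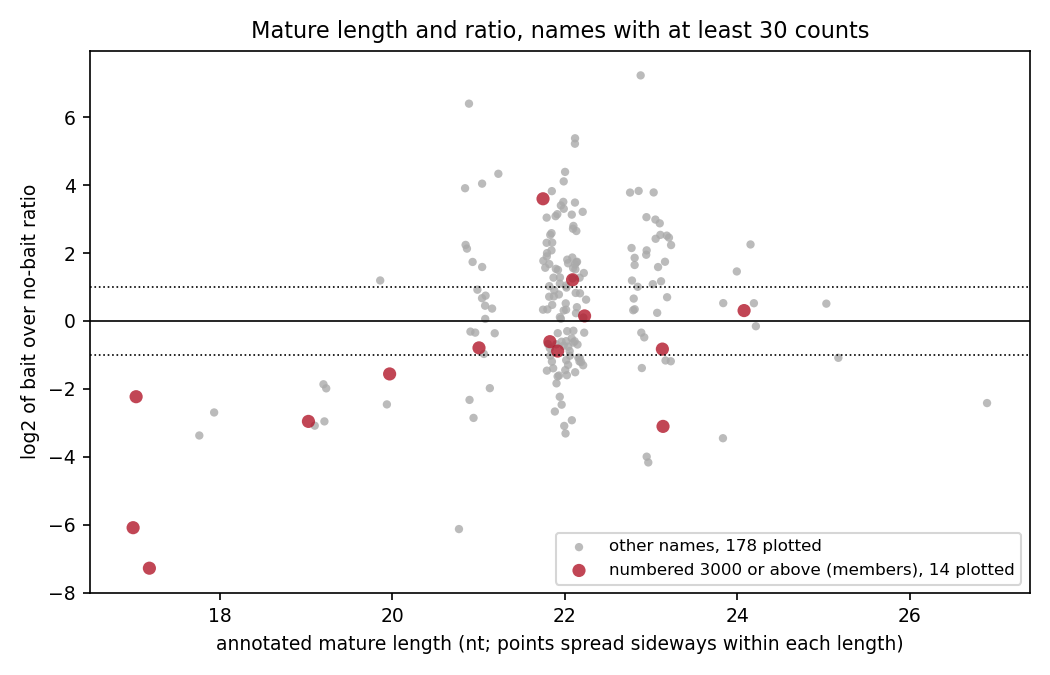
Log2 of the bait over no-bait ratio against annotated mature length for names with at least 30 counts, a sequence and counts in both libraries (red: 14 members; grey: 178 other names). A further 8 other names with 0 counts without bait are not drawn, and dotted lines mark 2-fold. All points at 17 to 19 nt lie below -1, whereas those at 22 and 23 nt spread over both signs.

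Base composition differed from that of older miRNAs as well. The median GC content was 57.1% for the 83 members (range 22.7% to 94.1%) and 47.8% for the names below 3000. Among members of 22 nt or more the pooled ratio was 2.17 (1.29 to 3.91) below 50% GC, 0.678 (0.559 to 0.827) from 50% to below 65%, and 0.545 (0.336 to 0.905) at 65% or more. The first of these rests largely on miR-4677-3p (40.9% GC) and miR-3613-5p (22.7% GC), which had 47 and 24 of its 135 bait counts. Over members of any length the ratio did not follow GC content in 1 direction, at 0.414 (0.337 to 0.511) below 50%, 0.536 (0.451 to 0.639) from 50% to below 65%, and 0.334 (0.262 to 0.426) at 65% or more. The part of length or GC content in the ratio was not tested.

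By position, 45 of the 83 members lay in introns, 15 in exons and 23 in no gene on their strand (GENCODE version 29, GRCh38). Their pooled ratios were 0.450 (0.373 to 0.545), 0.533 (0.419 to 0.682) and 0.392 (0.325 to 0.472), with overlapping intervals. For 9 members an end of the mature RNA lay within 2 bases of an annotated splice site, as in mirtrons, and 2 of these reached 30 counts. miR-5010-3p ends with an intron of 310 bases in ATP6V0A1, a subunit of the vacuolar proton pump, and was not called, at a ratio of 2.32. miR-3605-3p ends with an intron of 1439 bases in the polycomb gene PHC2. It had 14 counts with bait and 31 without, or 13.4 and 115 RPM, and was 8.60-fold lower (4.44 to 17.5). The intervals of their ratios, 0.831 to 8.96 and 0.0572 to 0.225, did not overlap, so members with this shared position differed.

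By arm, the 32 members labelled 5p had a pooled ratio of 0.579 (0.443 to 0.761) and the 25 labelled 3p one of 0.650 (0.483 to 0.885). The 49 with no arm in their name stood at 0.387 (0.345 to 0.435), and 7 of their 12 with 30 counts were lower. Over all 231 names with 30 counts 26.8% were lower, and no share was taken over older names without an arm. These 7 include the 4 members of 17 to 19 nt, so this label overlaps the length class. A name without an arm means that 1 mature RNA is registered for the hairpin. Both arms of a hairpin were members in 5 cases. In miR-3940, from an intron of 82 bases in the RNA-binding protein gene KHSRP, the 5p arm had 1 count with bait and 5 without, and the 3p arm had 10 and 1. The arms' ratios were 0.0515 (0.00109 to 0.460) and 2.58 (0.366 to 112), whose intervals overlap slightly. For miR-3605 the 5p arm had 1 count in each library. In miR-4709 the 3p arm had 1 and 4 counts, also lower than its 5p arm in both libraries. The arms of miR-6516 had 6 and 5 counts with bait and 0 without, and those of miR-5585 had 2 and 3 with bait and 0 without. For miR-3940 and miR-4709 the intervals of the 2 arms' ratios overlap, and for the other 3 hairpins an arm had at most 1 count without bait.

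A list of 15 names said to overlap other RNAs, compiled from general knowledge rather than from the annotation, held 10 members. They took 26 counts with bait and 83 without, a pooled ratio of 0.0807 (0.0498 to 0.127). miR-7704 was the one with at least 30 counts. miR-3656 had 3 and 18 counts (ratio 0.0429, 0.00810 to 0.147), miR-3960 had 1 and 20 (0.0129, 0.000311 to 0.0805) and miR-4461 had 1 and 9 (0.0286, 0.000653 to 0.207). The other 6 had at most 2 counts in either library. Of the 10 members, those with a matched sequence could be checked at their own locus, and there miR-3651 alone overlaps another annotated small RNA. Nuclear tRNA genes were not among the classes searched, and likeness to RNAs encoded elsewhere was not looked at. The check therefore cannot exclude the other overlaps on the list. The 3 members with such an annotated overlap, miR-3651 and both arms of miR-6516, had 13 counts with bait and 2 without. Their pooled ratio was 1.67 (0.379 to 15.3), so the low ratio of the list was not seen for them, on few counts. miR-4508, which is not on this list and was picked out after its values were seen, had 2 and 23 counts (0.0224, 0.00256 to 0.0906). Of the 11 left-out names 7 had at least 2 counts, and these would have lowered the pooled ratio of the members from 0.438 to 0.153.

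The pull-down addresses which miRNAs associate with MACC1-AS1, so seeds were compared with its annotated transcript of 639 bases. Searched on the transcript strand for the 7-letter complement of seed bases 2 to 8, 1 of the 83 members matched, against 2.70% of the 482 names with a sequence and at least 2 counts. It was miR-6873-3p, whose complement AGAGAGA lies at bases 506 to 512 of the transcript, and it had 0 counts with bait and 3 without. Of the 14 tested members with a sequence 0 matched, miR-4677-3p among them. The bait's own isoform and its MS2 repeats were not analysed here.

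Of the 106 members, 14 had in the authors' deposited table a p-value under 0.05, 13 with a negative and 1 with a positive fold change, beside 7.83% negative and 12.2% positive among all 715 names with a count. The positive one was miR-4677-3p, with a log2 fold change of 3.60 and p = 0.00383 in the authors' deposited table. The 2 members with the lowest p-values in the authors' deposited table were miR-4443 (log2 fold change -7.29, p = 3.63e-08) and miR-3182 (-6.09, p = 1.12e-07). As shares of the members, 12.3% were negative and 0.943% positive at that threshold. The 715 names include those with 1 count, which the members' minimum of 2 leaves out. The 2 sets are therefore not alike, and no excess is read from their shares. That table rests on the same counts, and its test, not named in the sources used here, compares 2 libraries rather than conditions.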

How the data were processed

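Per the file headers, the authors deposited for each library a whole-number count for each mature miRNA and a normalized value. The deposited normalized value is an RPM, since it equalled the count divided by the library total within 0.00994 RPM. A deposited table of the authors' comparison gives a log2 fold change and a p-value per miRNA. The submitters' processing notes name BWA. Its version, the miRNA reference, trimming and the division of reads that match several names are not stated in those sources, so ratios of near-identical entries are uncertain.

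Counts were scaled by library totals. Ratios have exact conditional binomial 95% intervals and shares have Clopper-Pearson intervals (scipy 1.17.1). The ratio intervals and calls, but not the share intervals, were tested on simulated Poisson counts, which hold no variation between libraries beyond counting error. With 1 library per group no p-value was computed. Calls needed 30 summed counts. No ratio is given where 1 library had 0 counts, since a ratio against the planned floor of 3 counts could fall on the wrong side of 1 there. That floor did enter calls and medians over names with 0 counts in a library. The median without a minimum instead added a small constant to every count. Alternatives were edgeR 4.0.16 TMM factors, DESeq2 1.42.0 size factors, totals without the 5 most abundant names, and other count minimums and member sets. The naming rule took the 12 deepest members, the 5 highest per library, the 5 most extreme interval bounds in each direction among members with 30 counts, and up to 4 members per list; members named outside it were picked after their values were seen. The members and lists were chosen with earlier results of these data known.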

Additional observations from a re-analysis of the deposited data

How the results depend on the processing

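Alternatives on length classes and on members without a sequence were added after the data were seen. No paired analysis was possible because each group held 1 library. Log2 ratios of all names shifted by 0.15 with TMM, 0.42 with DESeq2 size factors and -0.13 without the 5 most abundant names. The pooled ratio lost its 2-fold call with DESeq2 size factors (0.587), with numbers of 4000 or above (0.514) and without members of 17 to 19 nt (0.583). That of members of 22 nt or more turned from 0.788 to 1.06 with DESeq2 size factors. With DESeq2 size factors 4 of 18 members were called higher and 8 lower. Over all 231 tested names higher calls also rose, from 91 to 114, and lower calls fell, from 62 to 44, with these factors. The rise in higher calls was therefore not particular to the members. At a minimum of 10 the calls were 2 higher and 14 lower of 30 members, beside the shares over all 325 names given above. At 100 they were 0 and 1 of 4, and without a minimum 2 and 23 of 106. For these 2 settings no share over all names was taken. The median log2 ratio was -0.70 with TMM, -0.44 with DESeq2, -0.99 without the 5 most abundant, -1.26 at a minimum of 10, -0.32 at 100 and -1.22 without a minimum. Members detected with bait were 46 at a sum of 5, 61 at numbers of 4000 or above and 55.4 when thinned, and without bait 40 and 48. The shares with and without bait moved to 0.0938% and 0.214% at a sum of 5, and to 0.0785% and 0.153% at numbers of 4000 or above. They were 0.0567% and 0.163% without the 5 deepest members, and 0.0945% and 0.162% without members of 17 to 19 nt. With the 7 left-out names of at least 2 counts put back, they were 0.161% and 1.06%. Without the deepest member the bait share was 0.0879%, and without the list said to overlap other RNAs the no-bait share was 0.204%. These shifts follow from the changed factor, filter or set. The no-bait depth limits most ratios: 1 count there is 3.71 RPM.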

Other observations

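Of the members whose hairpins overlap another miRNA hairpin, miR-3074-5p, opposite the hairpin of miR-24-1 on chromosome 9, had 7 counts with bait and 0 without. miR-3065-5p, opposite miR-338 on chromosome 17, had 6 and 0. miR-3158-3p, whose hairpins lie on both strands of 1 locus on chromosome 10, had 7 and 4 (ratio 0.451, 0.115 to 2.10). The 3 together had 20 counts with bait and 4 without, a pooled ratio of 1.29 (0.431 to 5.18), too few to place them above or below 1. Members that overlap another annotated small RNA were the arms of miR-6516, within SCARNA16, and miR-3651, within SNORA84. They had 13 counts with bait and 2 without, a pooled ratio of 1.67 (0.379 to 15.3) whose interval includes 1. miR-3173-5p, from an intron of DICER1, the gene of the enzyme that cuts miRNA precursors, had 2 and 4 counts (ratio 0.129, 0.0116 to 0.899).

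The 76 members with 2 to 9 counts had a pooled ratio of 0.420 (0.323 to 0.548). Its interval overlaps that of the 18 members with at least 30 counts, at 0.483 (0.430 to 0.544). The 12 members with 10 to 29 counts had a pooled ratio of 0.252 (0.189 to 0.337), and the interval does not reach that of the deeper members.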
